A study of Mus musculus with 12 samples.

Results

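The 9 genes of polyamine synthesis and turnover were followed through MYC and MAX peak lists of RAW264.7 cells, a mouse line with macrophage properties, labelled as derived from monocytes, that forms osteoclasts, the bone-resorbing cells, when given the cytokine RANKL. The members are Odc1, Srm, Sms, Amd1, Oaz1, Oaz2, Azin1, Sat1 and Smox, or 9 of 21887 protein-coding genes in the gene table. A peak was assigned to a member when it overlapped the gene's extent on mm10 or the 10 kb on either side of it. Peaks come from chromatin immunoprecipitation and sequencing (ChIP-seq) with antibodies to MYC or to MAX, with 1 list for each antibody and treatment. The 4 treatments were no addition (untreated), RANKL at 50 ng/ml, the BET bromodomain inhibitor I-BET at 500 nM, and the 2 agents combined, and treated cells were fixed after 4 h. All groups are the same line with no engineered allele named in the labels, and the labels give bone marrow as its source. Nothing here has a replicate, so a difference between treatments is a difference between 2 lists and carries no test. Read depth is unknown from these files.

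Polyamines are small positively charged molecules that bind nucleic acids and are needed for translation and cell growth. Ornithine decarboxylase (Odc1) makes putrescine from ornithine. S-adenosylmethionine decarboxylase (Amd1) makes the aminopropyl donor, with which spermidine synthase (Srm) and spermine synthase (Sms) extend putrescine to spermidine and spermine. Antizymes (Oaz1 and Oaz2) bind ornithine decarboxylase and lead it to the proteasome, and the antizyme inhibitor (Azin1), an inactive relative of the enzyme, takes antizyme away. Spermidine/spermine acetyltransferase (Sat1) and spermine oxidase (Smox) carry out the return path. Odc1 is a textbook target of MYC, which binds DNA in a pair with MAX at E-boxes, of which CACGTG is the preferred form. MAX has other partners as well, such as the MXD proteins, so a MAX peak does not name its partner.

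The lists differ in length, which enters every count. The MYC and the MAX lists also carry different calling tags, so peaks of MYC and of MAX cannot be taken as called alike. The MYC lists held 312 peaks untreated, 299 with RANKL, 136 with I-BET and 11 with both, and the MAX lists held 8839, 10889, 36785 and 6307 in that order. Each listed peak joins calls of 3 sets whose nature is not stated in the sources used here, and carries a score set by the authors. Scores are used below only for the rank of a peak in its list, where rank 1 is the highest score. The I-BET MAX list differed from the other MAX lists in its scores too. Its lowest was 0.0 and its highest 3210. In the others the lowest ran from 48.3 to 54.0 and the highest from 1190 to 1950. Peaks within 10 kb of macrophage marker genes (8, among them Spi1, Csf1r and Cd68) were listed for 5, 6, 7 and 4 genes in the 4 MAX lists, against 3, 4, 4 and 2 of 5 osteoclast genes, 1, 2, 2 and 1 of 3 T cell genes, 0, 0, 1 and 0 of 3 fibroblast genes and 0, 0, 1 and 0 of 2 hepatocyte genes. The same rule gave 37.4%, 42.3%, 65.0% and 30.0% of all protein-coding genes. Of the macrophage genes, Adgre1 had no MAX peak in any list, and Itgam had one with I-BET only. A peak is no sign of expression, so these counts are no check of the cell type.

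The sequences of 4 promoters bear on what follows, because they show which E-box-like letters lay under or near the peaks. RefSeq promoter windows (250 bases before to 50 after a start, build GRCm38.p6, the same assembly as mm10) matched 7 members, while Srm and Azin1 had no entry. Bases are printed 5' to 3' along the gene's strand, and all lie upstream of the start. The capitals mark CACGTG, which reads alike on both strands, or 1 of 2 related forms. One is CACGCG, which on the other strand is read CGCGTG. The other is CATGTG, which there is read as CACATG. For Odc1 the printed run is the whole upstream part of the window, up to the base before the start, all of it inside the MYC peak with RANKL. For the others 80 bases around each match are shown, including both starts of Sms.
Odc1, chr12:17544623-17544872, plus strand: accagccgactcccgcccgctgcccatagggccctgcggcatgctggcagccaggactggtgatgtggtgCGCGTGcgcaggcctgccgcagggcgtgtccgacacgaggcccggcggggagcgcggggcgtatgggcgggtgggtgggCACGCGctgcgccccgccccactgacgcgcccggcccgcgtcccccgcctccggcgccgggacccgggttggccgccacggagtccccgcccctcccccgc
Oaz1, chr10:80826407-80826486, plus strand: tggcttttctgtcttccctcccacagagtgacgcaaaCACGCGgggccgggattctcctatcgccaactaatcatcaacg
Sms, chrX:157492441-157492520, minus strand: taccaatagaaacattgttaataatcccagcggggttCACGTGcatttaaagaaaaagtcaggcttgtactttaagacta
Sms, chrX:157491466-157491545, minus strand: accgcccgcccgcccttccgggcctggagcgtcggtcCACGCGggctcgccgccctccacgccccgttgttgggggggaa
Sat1, chrX:155216602-155216681, minus strand: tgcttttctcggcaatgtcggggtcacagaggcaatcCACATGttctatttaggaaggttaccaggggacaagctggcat

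The window of Odc1 held CACGCG at positions -180 (as CGCGTG) and -101, counted from the RefSeq start, and both lay inside the Odc1 peak of all 4 MAX lists and of the MYC list with RANKL. That of Oaz1 held the form at -212, inside its MAX peaks with RANKL and with I-BET. The only CACGTG among the 7 members lay at -196 from the outer start of Sms, 40 bp beyond the edge of the nearest MAX peak with I-BET and inside no listed peak. The inner start of Sms had CACGCG at -140 and that of Sat1 had CATGTG, read as CACATG, at -195, both under MAX peaks with I-BET. The windows of Amd1, Oaz2 and Smox held none of the 3 forms. Over all 32851 windows of the table, searched on both strands, CACGTG stood in 7.15%, CATGTG in 14.2% and CACGCG in 9.27%. Among windows of protein-coding genes CACGTG stood in 17.9% of those under an untreated MAX peak and in 5.16% of the others, and with I-BET in 11.2% and 4.72%. CATGTG and CACGCG, the forms found under peaks of members, were not counted in this way. The Odc1 window was 78.0% G or C and that of the inner Sms start 74.3%, and none of these shares is matched for base content. A match is a run of letters, not a shown binding site. The Odc1 peaks reach past the window into the gene, where no sequence was used here.

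MYC peaks were listed at 2 of the members, Srm in untreated cells and Odc1 with RANKL, and at none with I-BET present. The Srm peak (chr4:148591810-148592086, 277 bp) had a score of 124 and rank 88 of 312, and began 297 bp inside the lower-coordinate end of the gene. The Odc1 peak (chr12:17544589-17544875, 287 bp) had a score of 99.7 and rank 185 of 299, and its midpoint lay at -141 from the start. Each is thus 1 of 9 members in its list, set against 2.05% of all protein-coding genes with a MYC peak by the same rule in untreated cells and 2.02% with RANKL. With I-BET and with both agents 0 of 9 members had a MYC peak, against 0.434% and 0.064% of all genes. The I-BET MYC list was unlike the others in more than length. Its median width was 72.5 bp, against 260 untreated and 307 with RANKL. Its highest score was 1700, against 375 in each of those lists. Over promoter windows Odc1 was 1 of 7 members with a MYC peak with RANKL, and 0.869% of all genes with a window had one. The Odc1 peak was in the lower-scoring part of its list and was not in the top 136 by score.

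Both MYC peaks lay wholly inside the MAX peak of the same treatment. Srm and Odc1 were therefore set beside all MAX peaks ranked as high or higher, their own included. The Srm MAX peak ranked 213 of 8839 in untreated cells, and 83 of the 213 MAX peaks ranked as high or higher also carried a MYC peak (39.0%), against 3.29% of all untreated MAX peaks. With RANKL the Odc1 MAX peak ranked 126 of 10889, and 39 of these 126 carried MYC (31.0%), against 2.57% of all. No MYC peak was listed at Odc1 in untreated cells, where its MAX peak ranked 517. Of the 517 peaks ranked as high or higher, 155 (30.0%) carried MYC. Srm likewise had no MYC peak with RANKL, where 39 of the 128 MAX peaks ranked as high or higher (30.5%) had one. From these ranks upward a minority of MAX peaks thus carried a listed MYC peak, and Srm and Odc1 were among them in 1 treatment each. The share among MAX peaks close to these ranks was not counted. The 7 other members had no MYC peak within 10 kb in any list, and the nearest one lay 248513 bp from Oaz1 in untreated cells.

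MAX was listed at most of the members in every list but that of both agents. Peaks lay at 6 of 9 in untreated cells, 7 with RANKL, all 9 with I-BET and 4 with both agents. The same rule gave 37.4%, 42.3%, 65.0% and 30.0% of all protein-coding genes, so the members' shares (66.7%, 77.8%, 100% and 44.4%) stood above the level of all genes in each list, on 9 genes. By role, the 4 synthesis genes had 3, 4, 4 and 3 members with a peak in that order, the 3 antizyme-system genes had 2, 2, 3 and 1, and the 2 turnover genes had 1, 1, 2 and 0. The members' extents had a median of 13753 bp (2635 to 48437), against 17169 bp over all protein-coding genes. Odc1, Srm, Amd1 and Azin1 had a MAX peak in all 4 lists, 4 of 9 against 26.7% of all genes.

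**Figure D1:**
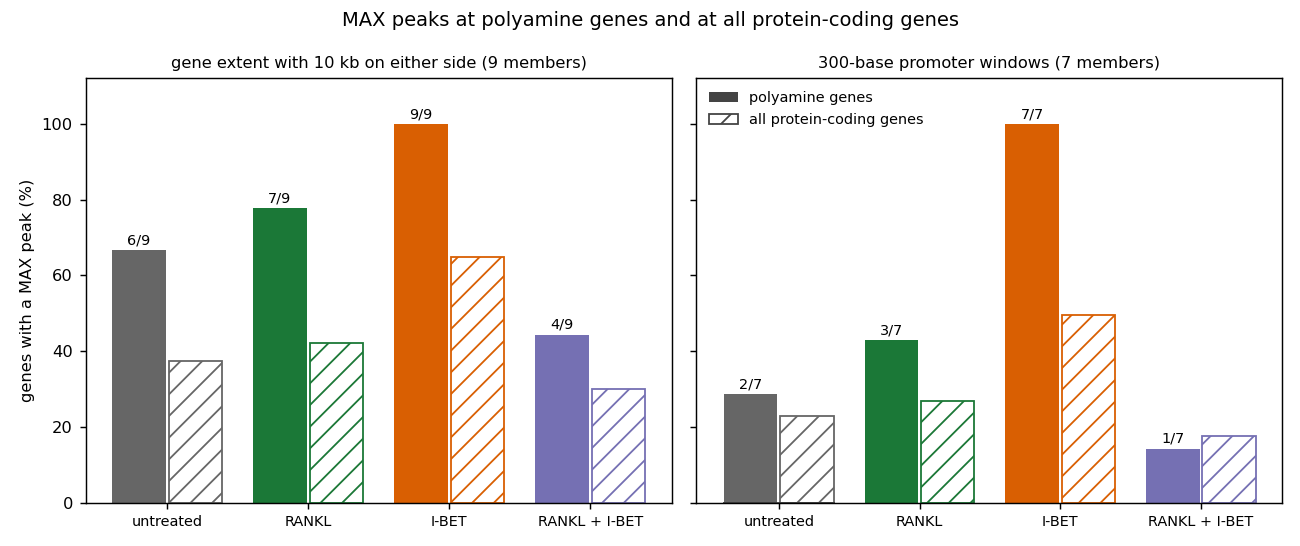
Percent of genes with a MAX peak by treatment, for the polyamine genes (filled bars, counts above them) and for all protein-coding genes (hatched bars), by gene extent with 10 kb on either side (left) and by 300-base promoter window (right). The I-BET bars reach 9 of 9 and 7 of 7, and the bars for both agents together are the lowest in each panel.

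The narrow promoter windows gave a second count, on fewer genes. It leaves out Srm and Azin1, which have no window and had a MAX peak in all 4 lists, so it is not compared here with the wide count. Of the 7 members with a window, MAX covered 2 in untreated cells (Odc1 and Amd1), 3 with RANKL (Odc1, Sms and Oaz1), 7 with I-BET and 1 with both agents (Odc1). Over all genes with a window these shares were 22.8%, 26.9%, 49.6% and 17.7%. The I-BET count is the one furthest from that level, and those of the untreated list and of both agents lie close to it. Odc1 was thus the single member among these 7 whose start was covered in every list. For Srm and Azin1, which have no window, the peak present in all 4 lists spanned an annotated end of the gene, the lower-coordinate end for Srm and the higher one for Azin1.

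Odc1 (chr12:17544808-17551502) had 1 MAX peak over its start in every list and the highest-ranked peak of any member in 2 of them. It spanned chr12:17544509-17545445 in untreated cells (937 bp), with a width of 1075 bp with RANKL, 1299 bp with I-BET and 974 bp with both. Its rank was 517 of 8839 untreated, 126 of 10889 with RANKL, 31 of 36785 with I-BET and 470 of 6307 with both. The I-BET peak, at a score of 2639, thus stood in the top 0.0843% of its list. A second peak, of 431 bp at rank 24434, was listed 2612 bp beyond the gene with I-BET only.

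Srm (chr4:148591513-148594619), whose product makes spermidine, had one MAX peak around its lower-coordinate end in all 4 lists. It spanned chr4:148591046-148592146 untreated (1101 bp) and measured 1415 bp with RANKL, 1942 bp with I-BET and 1169 bp with both. The ranks were 213, 128, 2402 and 233, so Srm led the members in untreated cells and with both agents, and stood just behind Odc1 with RANKL. With I-BET it came after Odc1, Amd1 and Azin1. That I-BET peak joins 5 calls, and the one with both agents 4, where the other peaks at Srm join 3. Further I-BET peaks lay inside the gene (rank 15840) and 7866 bp below its lower-coordinate end (rank 23795).

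Amd1 (chr10:40287458-40302188, minus strand) had its main MAX peak not at the start but inside the gene. In untreated cells this peak (chr10:40300586-40300990, 405 bp) had its midpoint at 1400 bp downstream of the start and rank 2572. A weaker one over the start (chr10:40302142-40302485, rank 8322) and another 7728 bp beyond the gene (rank 6447) were also listed. With RANKL one wide peak of 1164 bp inside the gene was listed (rank 6256, 5 joined calls), and the start had none. With I-BET both were listed, at ranks 1525 (1283 bp) and 5512 (852 bp), as were peaks 7581 and 8131 bp upstream (ranks 30475 and 29600). With both agents the stretch inside the gene was listed as 2 peaks of 419 and 334 bp (ranks 2026 and 2802), and the start again had none.

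Sms (chrX:157443851-157492287, minus strand), the spermine synthase gene, had no MAX peak in untreated cells or with both agents. With RANKL a peak of 409 bp lay over its outer start (rank 8594) and another of 337 bp inside the gene, 15097 bp downstream of the nearer start (rank 6137). With I-BET a peak of 1621 bp covered both starts (rank 10065). The intragenic RANKL peak was in no other list. Regions in the RANKL list alone are rare among the 37124 regions merged over the 4 MAX lists, at 238 (0.641%).

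In the antizyme system Azin1 (chr15:38487430-38519294) had a MAX peak in every list and the antizyme genes did not. The Azin1 peak lay over the higher-coordinate end of the gene, at chr15:38519172-38519822 untreated (651 bp), with widths of 565, 1763 and 526 bp with RANKL, I-BET and both. Its ranks were 1553, 1412, 2053 and 3163 in the 4 lists. Oaz1 (chr10:80826656-80829290), which encodes antizyme 1, had an untreated peak 4353 bp upstream of the gene (249 bp, rank 4955) that was listed again with I-BET (rank 18234) and not with RANKL. With RANKL its peak was over the start instead (377 bp, rank 7657), as was a wider one with I-BET (1100 bp, rank 11675). The counts of Oaz1 untreated and with RANKL thus rest on 2 different places. Oaz2 (chr9:65676548-65690300) had MAX peaks with I-BET only, one of 472 bp over the start (rank 6781) and one of 552 bp within the neighbouring gene Zfp609 (rank 16411).

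The turnover genes had few MAX peaks without I-BET. Sat1 (chrX:155213126-155216449) had 1 peak in all, of 930 bp over its start with I-BET (rank 7078). Smox (chr2:131491858-131525183) had a peak deep in the gene, its midpoint 18272 bp downstream of the start in untreated cells (chr2:131509947-131510322, rank 7392), listed again with RANKL (rank 5170) and with I-BET (rank 5758). With I-BET 6 more were listed at Smox, 1 over the start (rank 13196, also overlapping the predicted gene Gm30679), 3 further inside, and 2 beyond the far end, of which 1 touched Gm30732. With both agents neither gene had any.

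**Figure D2:**
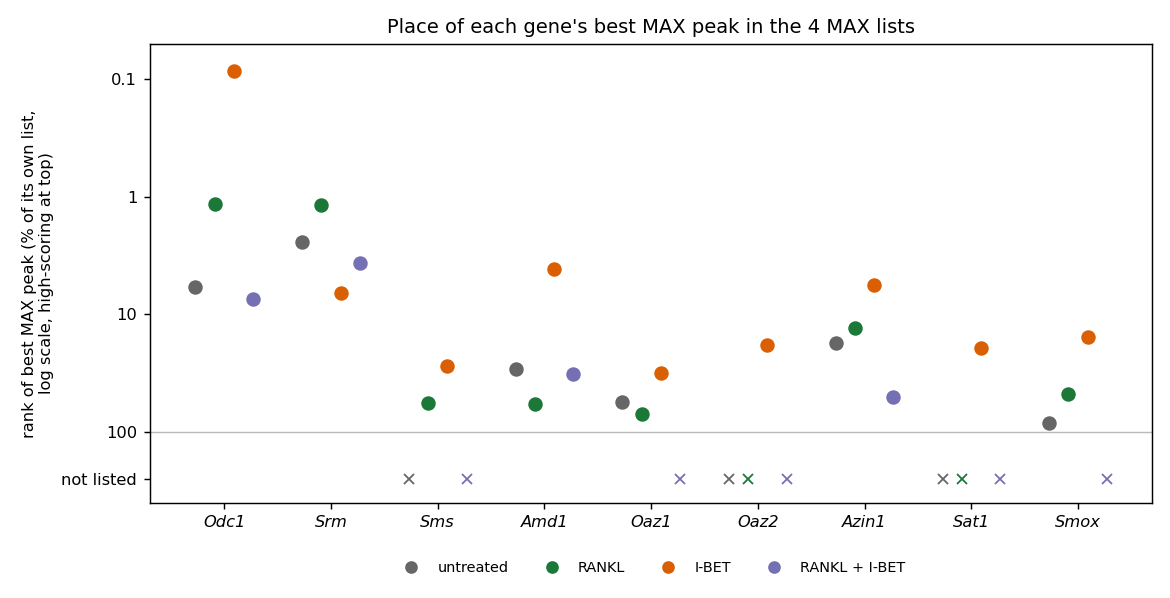
Rank of each member's best MAX peak as a percent of its own list, on a log axis with high-scoring peaks at the top, and crosses where no peak was listed. With I-BET Odc1 stands highest at 0.0843% and Oaz1 lowest at 31.7%. In untreated cells Srm stands highest at 2.41% and, of the members listed, Smox lowest at 83.6%. Lists differ in length, so heights are read within a colour.

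The RANKL list set beside the untreated one asks what binding is like at these genes early in osteoclast formation. All 6 members with an untreated MAX peak also had one with RANKL, against 91.8% of such genes overall. Of the 3 without, 1 had a peak with RANKL (Sms), against 12.7%. Peak by peak, 5 of the 8 untreated MAX peaks at members were listed again at the same place (62.5%), against 82.0% of all untreated MAX peaks. The 3 that were not are the start and upstream peaks of Amd1 and the upstream peak of Oaz1. The single member with a MYC peak was Srm untreated and Odc1 with RANKL.

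Cells given the inhibitor alone show the same genes with BET proteins blocked and no RANKL. All 3 members without an untreated MAX peak (Sms, Oaz2 and Sat1) had one with I-BET, against 44.3% of such genes, and all 8 untreated peaks were listed again, against 97.5%. The number of MAX peaks at members was 24 with I-BET and 8 untreated, or 2.67 and 0.889 per gene, beside 2.07 and 0.557 over all protein-coding genes. Of the 25 MAX regions merged over the lists at members, 14 were in the I-BET list alone (56.0%), as were 66.9% of all regions. In equal numbers of top-ranked peaks (6307 from each MAX list) 5 members had a peak untreated, 6 with RANKL, 5 with I-BET and 4 with both. The share of all protein-coding genes under this cut was not counted, so these counts are not set against it. A cut of a list can only lower or keep its count. The count of 9 with I-BET thus depends on the length of that list, and Sms, Oaz1, Oaz2 and Sat1 are the members outside its top 6307.

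The list for both agents set beside that for RANKL asks how the inhibitor alters binding during induction. Of the 7 members with a MAX peak with RANKL, 3 had none with both agents (Sms, Oaz1 and Smox), or 42.9% against 32.2% of all such genes. By peaks, 4 of 8 were listed again (50.0%, against 51.2% of all RANKL peaks), close to the level of all peaks. The 4 members with a MAX peak in both lists were Odc1, Srm, Amd1 and Azin1. Of the 24 peaks with I-BET alone 4 were listed again when RANKL was present too (16.7%, against 16.4%). The MYC peak of Odc1 was not listed with both agents, while its MAX peak was. That MYC list held 11 peaks in all, and 0.064% of all protein-coding genes had one by the same rule. Absence of a given gene from so short a list does not show a loss of MYC there.

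The 4 regions present in all MAX lists allow ranks over one set of regions, since 4792 regions were common to the 4 lists. In this set Odc1 ranked 515 untreated, 126 with RANKL, 31 with I-BET and 469 with both. Srm ranked 213, 128, 2164 and 233, Amd1 2303, 4073, 1463 and 1936, and Azin1 1480, 1375, 1897 and 2852. Odc1 and Srm were thus at 10.7% or higher up everywhere except Srm with I-BET, at 45.2%. Over all common regions the median absolute difference between untreated and I-BET was 16.6 percentile points, and between untreated and RANKL it was 13.6. For the 479 regions in the upper 10% untreated, the middle 80% of differences with I-BET ran from -2.93 to 52.4 points, a range that holds Srm. Of these 479 regions, 13 had an I-BET peak that joins over 3 calls, Srm among them. Their median difference was 40.7 points, against 2.21 for the 466 with 3 calls. Srm itself stood at 4.44% untreated and 45.2% with I-BET. To the digits given, the median of the 13 is the difference of Srm itself, so it is no separate comparison for Srm. Over all common regions the medians for over 3 and for 3 calls were 15.4 and -2.0 points with I-BET. The place of Amd1 with RANKL (85.0%, from 48.1% untreated) also belongs to a peak of 5 joined calls. RANKL peaks of over 3 calls had a median difference from untreated of 6.09 points over 353 common regions, and those of 3 calls -0.292. A median without its spread does not place a single region such as that of Amd1. The part of the joining in the rank of Srm or Amd1 was not tested.

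**Figure D3:**
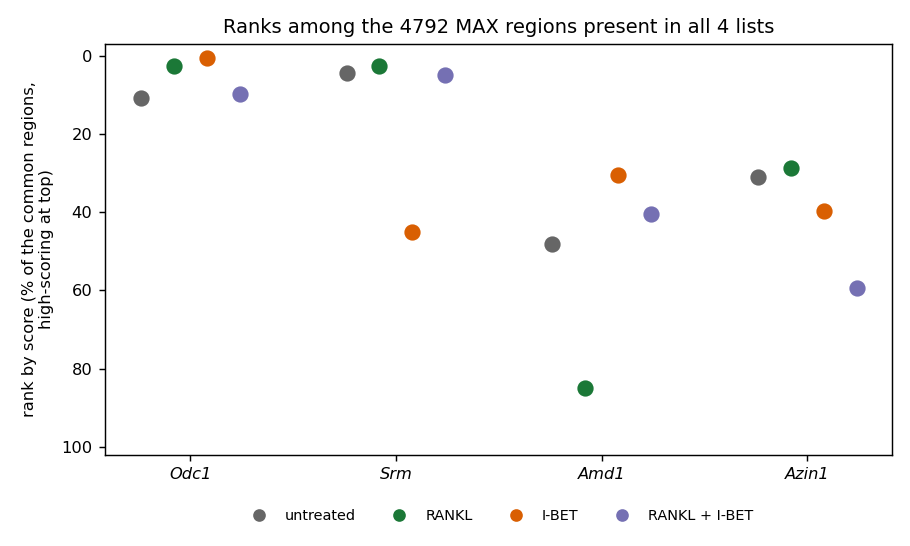
Rank by the authors' score among the 4792 MAX regions present in all 4 lists, as a percent with high-scoring regions at the top, for the 4 polyamine genes with such a region and each treatment. Odc1 runs from 0.647% with I-BET to 10.7% untreated, and Srm with I-BET (45.2%) and Amd1 with RANKL (85.0%) stand apart from the other points of their genes.

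Of 26 other genes of the wider pathway, MAX peaks within 10 kb were listed for 19 untreated, 21 with RANKL, 25 with I-BET and 16 with both, against 37.4%, 42.3%, 65.0% and 30.0% of all protein-coding genes. MYC peaks were listed for 3, 2, 1 and 0 of them, against 2.05%, 2.02%, 0.434% and 0.064%. Mat2a, which makes S-adenosylmethionine, had a MYC peak inside the gene untreated (rank 289) and with RANKL (rank 189), and MAX peaks at ranks 909, 210, 185 and 1010. Eif5a, the factor that carries the spermidine-derived residue hypusine, had a MYC peak untreated (rank 171) and MAX peaks in all 4 lists. Paox, the gene of polyamine oxidase, counts only through a peak over its neighbour Mtg1, 3148 bp away in untreated cells. The high MAX ranks of Slc18b1, a polyamine transporter gene, likewise belong to a peak over Rps12, 9193 bp away untreated. Within 1 kb the MAX counts were 15, 13, 20 and 10 of 26, against 29.8%, 34.5%, 58.7% and 23.5% of all protein-coding genes. In ornithine supply (Arg1, Arg2, Agmat and Oat) 0 of 4 had a MAX peak untreated, 2 with RANKL, 4 with I-BET and 0 with both. The genes counted with RANKL were Arg1 and Agmat, each only through a peak over a neighbour, Med23 at 3529 bp and Dnajc16 at 7173 bp. With I-BET the best peaks of Arg1, Agmat and Oat lay 3499, 6894 and 5355 bp outside the gene. That of Arg2 lay at the gene, at rank 30807 of 36785. The arginine transporter gene Slc7a1 had a MAX peak inside it in all 4 lists and Slc7a2 in none.

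The distance rule and neighbouring genes entered the number of MAX peaks with I-BET. Of the 24 at members 15 touched the gene extent and the others lay in the 10 kb beside it, and 19 were counted when each peak was given to its nearest gene only. The peak farthest from a gene and still counted lay 9556 bp from Oaz1, within Lingo3, in the I-BET list. The nearest one left out lay 10060 bp from Srm, also with I-BET. The gene table gives extents without exons, so exons and introns were not assigned.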

How the data were processed

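The deposited lists hold, per peak, a position, the names of the joined calls and a score, the authors' own value. The builds mm10 and GRCm38 are named in the submitters' processing notes, with the tools MACS2 2.1.1.20160309, Bowtie2 2.3.4.1 and FastQC. The MYC lists and the MAX lists carry different calling tags. Nothing else read here states the calling thresholds, the use of input or the nature of the 3 call sets. In every row the score times the number of joined calls is whole to within 1.09e-11, as for a mean. Scores were compared within a list only, except ranks over common regions. Starts were raised by 1, taking the lists as BED. Of 12 libraries the 4 inputs were not used here. Overlap means at least 1 bp. Gene extents and promoter windows are RefSeq, GRCm38.p6. The members and lists were chosen with earlier results of these data known. Named genes are the 9 members, context genes with a MYC peak, up to 8 others, and neighbours under a peak. Alternatives varied the distance, score, list length, width, gene assignment and overlap. Promoter windows and merged regions were added after the data were seen. Analyses ran in Python 3.11.15 with pandas 2.3.3, numpy 2.4.6 and matplotlib 3.10.9. On simulated peaks the overlap code recovered 200 of 200 genes given a peak at the size of the untreated MAX list, with 0 differences from bedtools 2.31.1.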

Additional observations from a re-analysis of the deposited data

Results flagged for a closer look

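With I-BET, MAX peaks at the members went in opposite directions without and with RANKL. Against untreated cells the I-BET list had 16 more MAX peaks at members and 3 more members with one. Against RANKL alone the list for RANKL and I-BET differed by -3 peaks and by -3 members. Each side is 1 list, and the difference between the contrasts was not tested. The whole lists moved the same way, from 8839 to 36785 peaks and from 10889 to 6307.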

How the results depend on the processing

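Of 97 recounts under other settings, 78 stayed within 1.5 times the reported count and 19 did not. Among the peaks above each list's median score no member (0) had a MYC peak with RANKL, 4 members had a MAX peak with RANKL, and MAX peaks at members were 4 untreated, 4 with RANKL and 15 with I-BET. In equal numbers of top peaks (136 for MYC, 6307 for MAX) the MYC count with RANKL was 0, MAX peaks at members were 5 untreated and 6 with I-BET, and 5 members had a MAX peak with I-BET. The MYC list for both agents is too short for that setting. Shares of all protein-coding genes were not counted for the cuts by score or by list length. MAX peaks with I-BET were 15 within 1 kb, 15 in the gene extent alone and 38 within 25 kb, and those with both agents were 9 within 25 kb. Promoter windows left 2, 3 and 1 members with MAX untreated, with RANKL and with both, of 7 that have a window. At reciprocal overlap of 50%, 0 of the 2 MYC peaks matched a MAX peak, since MYC peaks were the narrower, 5 untreated MAX peaks were matched with I-BET, and 2 I-BET peaks with both agents. Leaving out peaks under 100 bp, counting the nearest gene only and merging regions changed no count by over 1.5 times. For the other settings the cause was not tested beyond what their construction removes.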
